A study of Mus with 4 samples.

Results

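The genes described here are 10 genes of cardiac fibroblasts and of the extracellular matrix, taken from a table of 55487 mouse gene IDs by a fixed set of Ensembl gene IDs: *Col1a1*, *Col1a2*, *Col3a1*, *Col4a1*, *Col4a2*, *Postn*, *Fn1*, *Dcn*, *Sparc* and *Pdgfra*. All 10 were found in the table. RNA-Seq was done on hearts of newborn mice at postnatal day 0 (P0), to ask how raised microRNA-187 (miR-187) changes the cardiac transcriptome. Of 4 libraries, 2 were from wild-type (WT) mice and 2 from mice that overexpress miR-187. The miR-187 mice carry a knockin at the *Rosa26* locus, made on a C57BL/6J background. In it the *Tek* (*Tie2*) promoter drives exogenous mmu-miR-187 in endothelial cells. For RNA-Seq at this age, KI/KI (homozygous) pups and WT pups are given in the methods of the study. The labels give heart as the source and no zygosity, whereas the methods speak of cardiac endothelial cells; the labels are followed here. The WT controls carry no such insert. The labels do not say whether replicates were separate animals, so p-values measure only the spread between these libraries, which may be technical.

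Cardiac fibroblasts are the main source of the fibrillar collagens that bind muscle fibres and vessels together, and their number and matrix output rise in the heart around birth. Type I and type III collagen form the fibrils, type IV collagen forms the sheet of the basement membrane beneath endothelium and around cardiomyocytes, and fibronectin, periostin, SPARC and decorin organize fibrils or link them to cells. The endothelial cells in which the transgene is active make type IV collagen and SPARC themselves, whereas *Pdgfra* marks fibroblasts and not endothelium. The expression values are the authors' FPKM, that is, fragments divided by the length of the transcript and by the mapped total of the library, so levels of different genes can be set side by side. In a tissue library, fewer cells of a type and less RNA per cell cannot be told apart.

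The libraries differed in ways that did not follow the groups. The sum of FPKM ranged from 750826 to 807359 per library, and the read depth is unknown because the values hold no counts. The single most abundant ID held 18.5% and 21.0% of the sum in replicate 1 of WT and of miR-187, against 4.45% and 3.03% in the respective second replicates. IDs averaging 1000 FPKM or more together held between 56.7% and 67.2% of the sum, and the median FPKM ranged from 0.241 to 0.562. Heart and fibroblast markers beyond the 10 genes were not used here, because names of the other IDs were not given in the sources used.

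With regard to level, the genes of the matrix were among the most abundant transcripts of these 4 libraries and the receptor was not. Averaged over the 4 libraries, *Sparc* had 603 ± 76.5 FPKM (SD over 4 libraries), *Dcn* 395 ± 122, *Col3a1* 210 ± 80.3, *Postn* 198 ± 78.4, *Col1a1* 151 ± 44.3, *Col1a2* 132 ± 43.4, *Fn1* 94.9 ± 38.8, *Col4a1* 68.3 ± 8.10 and *Col4a2* 61.0 ± 15.2. *Pdgfra*, which encodes the alpha receptor for platelet-derived growth factor, had 2.85 ± 1.08 FPKM. *Sparc* lay above *Dcn*, and *Col4a2* above *Pdgfra*, with no overlap between their ranges. *Dcn* was above *Col3a1* in each of the 4 libraries, although their ranges overlapped. From *Col3a1* down to *Col4a2*, each gene exceeded the next in 3 of 4 libraries, so neighbours in that order did not differ beyond their spread. Among the 14325 genes tested, those averaging 1 FPKM or more, 99.3% lay below *Sparc*, 93.8% below *Col4a2* and 39.0% below *Pdgfra*.

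**Figure D1:**
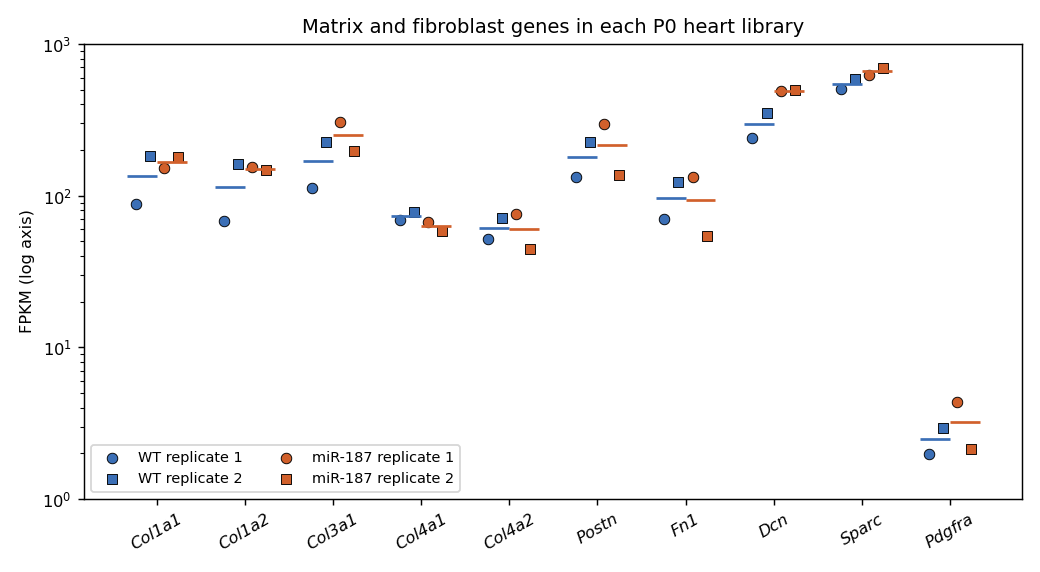
FPKM on a log axis for the 10 genes, with WT libraries in blue, miR-187 libraries in orange, circles for replicate 1, squares for replicate 2 and horizontal lines for group means. *Dcn* and *Sparc* lie higher in both miR-187 libraries than in both WT libraries, *Col4a1* lies lower, and WT replicate 1 is the lowest library for 7 of the 10 genes.

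None of the 10 genes passed the test for a difference between miR-187 and WT hearts, and the widest difference was that of *Dcn*, which encodes decorin, the small proteoglycan that coats collagen fibrils and sets their width. The groups were compared with limma on log2(FPKM + 1) over all 14325 genes, with the Benjamini-Hochberg adjustment and a threshold of 0.05. Of the 10 genes, 0 passed in either direction and 0 had an unadjusted p under 0.05 in limma, where 0.00698% of all tested genes were called and 3.12% had an unadjusted p under 0.05. The limma adjusted p was 1.00 for each of the 10. On the log2 scale 7 of the 10 had a higher mean in miR-187, as did 44.3% of all tested genes and 40.6% of those averaging 50 FPKM or more. After quantile normalization, or after rescaling to a sum without the IDs over 1000 FPKM, it was 8 of the 10. As deposited, the median difference was 0.26, against -0.04 over all tested genes and -0.08 over those averaging 50 FPKM or more. The groups did not overlap for *Dcn*, *Sparc* and *Col4a1*, that is 3 of 10, whereas 25.5% of all tested genes had groups that did not overlap (12.3% with miR-187 higher and 13.2% with miR-187 lower). A share of 3 in 10 is close to this background.

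*Dcn* (ENSMUSG00000019929, chr10:97479500-97518163 in GRCm38) measured 241 FPKM in WT replicate 1 and 353 FPKM in WT replicate 2, against 491 and 495 FPKM in the miR-187 libraries (replicate 1 before replicate 2, here and for the genes that follow). Both miR-187 libraries were above both WT libraries and lay within 1.01-fold of each other, whereas the WT libraries were 1.46-fold apart. WT averaged 297 ± 78.7 FPKM and miR-187 averaged 493 ± 2.997 FPKM (SD, n = 2 each), a ratio of 1.66. On the log2 scale the difference came to 0.76 ± 0.43 (standard error), with a 95% interval from -0.14 to 1.66. It had the smallest unadjusted p of the 10 genes, 0.0956 in limma, and its adjusted p was 1.00. The log2 difference ranged from 0.79 to 0.99 over the alternative scalings, and was 0.48 without WT replicate 1 and 1.03 without WT replicate 2.

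*Sparc* (ENSMUSG00000018593, chr11:55394159-55420080), whose product is a secreted collagen-binding glycoprotein, was the most abundant of the genes and spanned 1.36-fold from its lowest to its highest library. Its WT libraries measured 508 and 585 FPKM, and its miR-187 libraries 627 and 690 FPKM. The groups were separate, but the gap between them was narrow: the lower miR-187 value was 1.07 times the higher WT value. WT averaged 547 ± 54.6 FPKM and miR-187 averaged 659 ± 44.7 FPKM (SD, n = 2 each). The log2 difference came to 0.27, with a 95% interval from -0.63 to 1.17. It ranged from 0.31 to 0.55 over the alternative scalings, and was 0.17 without WT replicate 1 and 0.37 without WT replicate 2.

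The fibrillar collagen genes shared a low value in WT replicate 1, which was the lowest library for 7 of the 10 genes. *Col1a1* (ENSMUSG00000001506, chr11:94936224-94953042), which encodes the alpha-1 chain of type I collagen, measured 87.4 and 183 FPKM in the WT libraries, against 152 and 180 FPKM with miR-187. *Col1a2* (ENSMUSG00000029661, chr6:4505618-4541543), which encodes the partner chain of the same trimer, measured 67.8 and 161 FPKM in the WT libraries, against 154 and 146 FPKM with miR-187. For both genes WT replicate 1 was the lowest library and WT replicate 2 the highest, with the miR-187 libraries between them. Group means were 135 ± 67.3 and 166 ± 19.6 FPKM for *Col1a1*, and 114 ± 66.0 and 150.0 ± 4.99 FPKM for *Col1a2* (WT first, SD, n = 2 each). The WT replicates were 2.09-fold apart for *Col1a1* and 2.38-fold apart for *Col1a2*, further than the group means, whose ratios of miR-187 to WT were 1.23 and 1.31. The log2 differences were 0.39 (95% interval -0.54 to 1.31) and 0.52 (-0.43 to 1.46). Without WT replicate 1 they turned to -0.14 and -0.10.

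*Col3a1* (ENSMUSG00000026043, chr1:45311538-45349706), which encodes the chain of type III collagen found with type I in compliant tissue, measured 112 and 225 FPKM in the WT libraries, against 306 and 197 FPKM with miR-187. Here miR-187 replicate 1 was the highest library, and miR-187 replicate 2 fell between the WT values. WT averaged 168 ± 80.2 FPKM and miR-187 averaged 252 ± 77.3 FPKM (SD, n = 2 each). The log2 difference of 0.63 was the second widest of the 10, with a 95% interval from -0.32 to 1.57 and an unadjusted limma p of 0.183. It was 0.13 without WT replicate 1 and 1.13 without WT replicate 2.

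Of the genes for the basement membrane chains, *Col4a1* was lower in both miR-187 libraries and *Col4a2* had nearly equal group means. *Col4a1* (ENSMUSG00000031502, chr8:11198423-11312889) measured 69.6 and 77.9 FPKM in the WT libraries, against 67.5 and 58.1 FPKM with miR-187. Both miR-187 values were below both WT values, the higher of them being 0.970 times the lower WT value. Its means were 73.7 ± 5.87 and 62.8 ± 6.58 FPKM (SD, n = 2 each), a log2 difference of -0.23 with a 95% interval from -1.07 to 0.61. It ranged from -0.20 to -0.10 over the alternative scalings, and was -0.12 without miR-187 replicate 2 and -0.33 without miR-187 replicate 1. *Col4a2* (ENSMUSG00000031503, chr8:11312805-11449287) measured 51.4 and 71.7 FPKM in the WT libraries, against 75.9 and 44.8 FPKM with miR-187. The miR-187 libraries were the highest and the lowest of the 4, so the WT range lay inside that of miR-187. Its means were 61.6 ± 14.3 and 60.4 ± 22.0 FPKM (SD, n = 2 each). The log2 value for miR-187 minus WT was -0.06, with a 95% interval from -0.93 to 0.82, and its sign turned without WT replicate 2 (0.18), without miR-187 replicate 2 (0.32) and on rescaling (0.073) or quantile normalization (0.000184). The RefSeq gene models of *Col4a1* and *Col4a2* overlap by 85 bases, and long non-coding RNA genes overlap both of them and *Postn*. The use of strand in counting is not given in the sources used here, so reads in these stretches cannot be assigned with certainty.

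The adhesive glycoprotein genes *Postn* and *Fn1*, unlike *Sparc*, differed more between replicates than between group means. *Postn* (ENSMUSG00000027750, chr3:54359267-54391041), which encodes periostin, a matrix protein of activated fibroblasts and developing valves, measured 133 and 224 FPKM in the WT libraries, against 297 and 137 FPKM with miR-187. *Fn1* (ENSMUSG00000026193, chr1:71585473-71653280), which encodes fibronectin, the scaffold on which new matrix is laid, measured 69.9 and 124 FPKM in the WT libraries, against 132 and 53.8 FPKM with miR-187. In both genes miR-187 replicate 1 was the highest library, and miR-187 replicate 2 was 0.461 times replicate 1 for *Postn* and 0.407 times for *Fn1*. WT averaged 179 ± 64.4 FPKM and miR-187 averaged 217 ± 113 FPKM for *Postn*, and the means for *Fn1* were 96.7 ± 37.9 and 93.0 ± 55.4 FPKM (SD, n = 2 each). The log2 differences between groups were 0.22 for *Postn* (95% interval -0.74 to 1.19) and -0.14 for *Fn1* (-1.11 to 0.83). Over the alternative scalings they ranged from 0.26 to 0.41 for *Postn* and from -0.10 to -0.0088 for *Fn1*. The sign turned for *Postn* without WT replicate 1 (-0.15) or miR-187 replicate 1 (-0.33), and for *Fn1* without WT replicate 2 (0.27) or miR-187 replicate 2 (0.50).

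*Pdgfra* (ENSMUSG00000029231, chr5:75151322-75198206) measured 1.97 and 2.96 FPKM in the WT libraries, against 4.34 and 2.12 FPKM with miR-187. Its means were 2.46 ± 0.694 and 3.23 ± 1.57 FPKM (SD, n = 2 each). The order of the libraries was the same as for *Col3a1* and *Postn*, with WT replicate 1 lowest, then miR-187 replicate 2, WT replicate 2 and miR-187 replicate 1. The log2 difference was 0.25 with a 95% interval from -0.51 to 1.01, and it was -0.13 without miR-187 replicate 1. At this level the pseudocount of 1 makes the log2 difference smaller than the change in FPKM, for which the ratio of means was 1.31.

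**Figure D2:**
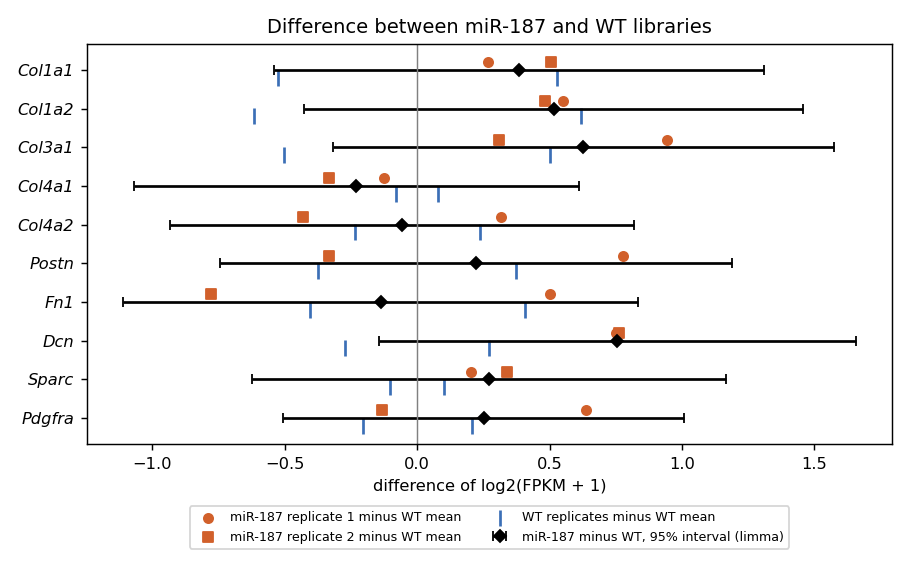
Differences of log2(FPKM + 1) for the 10 genes, with diamonds and bars for miR-187 minus WT and its 95% interval from limma, orange points for each miR-187 library minus the WT mean, and blue ticks for each WT library minus the WT mean. Every interval includes 0, from *Dcn* at 0.76 down to *Col4a1* at -0.23.

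To see how the spread between replicates compared with that of other genes, the libraries were set against each other within each group. In WT, all 10 genes were higher in replicate 2 than in replicate 1, as were 52.8% of all tested genes and 75.8% of the 1050 tested genes that averaged 50 FPKM or more. The median log2 gap between the WT replicates was 0.65 for the 10 genes, 0.04 for all tested genes and 0.37 for those of at least 50 FPKM. WT replicate 1 was the lowest library for 7 of the 10, compared with 21.98% of all tested genes and 34.3% of those of at least 50 FPKM. For 7 of the 10 genes the WT replicates were further apart than the group means, as they were for 67.5% of all tested genes. The miR-187 replicates differed in the opposite sense: 3 of the 10 genes were higher in replicate 2 than in replicate 1, near the 34.9% of all tested genes and below the 63.1% of those of at least 50 FPKM, and the median log2 gap of replicate 2 minus replicate 1 was -0.42, against -0.19 for all tested genes and 0.18 for those of at least 50 FPKM. The 3 genes were *Col1a1*, *Dcn* and *Sparc*.

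**Figure D3:**
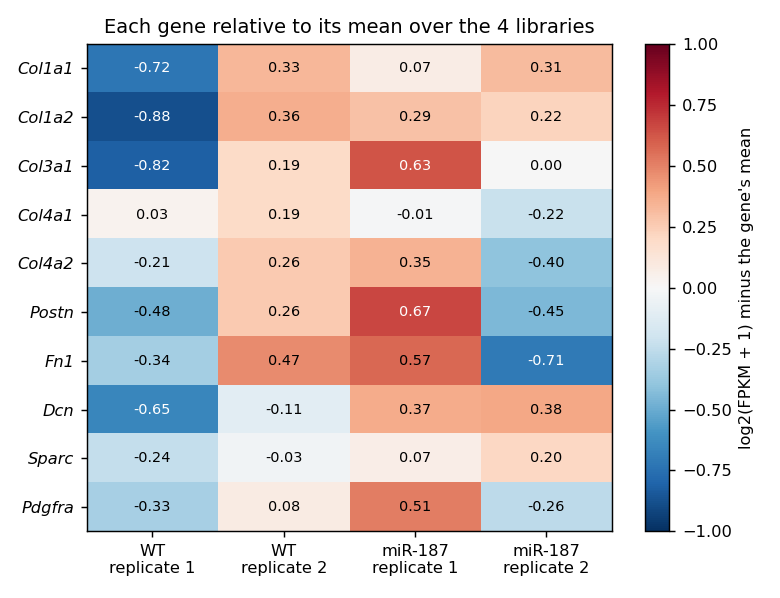
Heat map of log2(FPKM + 1) minus the mean of each gene over the 4 libraries, with red above and blue below the mean. In WT replicate 1, 9 of the 10 genes lie below their mean, from -0.88 for *Col1a2* to 0.03 for *Col4a1*, and in miR-187 replicate 1, 9 of the 10 lie above it.

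By these 10 genes alone, the pair of libraries nearest to each other came from different groups. The root mean square log2 difference over the 10 genes was 0.30 between WT replicate 2 and miR-187 replicate 1, and 0.92 between WT replicate 1 and miR-187 replicate 1, which were the extremes among the 6 pairs. Libraries of the same group differed by 0.75 in WT and 0.68 in miR-187. A nearest pair from different groups was not particular to these genes: over all tested genes it was WT replicate 1 and miR-187 replicate 1, at 0.48, and the same pair was nearest over genes averaging 50 FPKM or more, at 0.63. That pair was the furthest apart over the 10 genes. The gene IDs with the profile most like the average of the 10, among 1041 other IDs that averaged 50 FPKM or more, were ENSMUSG00000001123.15 and ENSMUSG00000025410.10, at root mean square distances of 0.03 and 0.04 log2 units over the 4 libraries. A total of 122 of the 1041 IDs lay within 0.2 log2 units, so with 4 libraries such a profile is common. Of the 10 genes themselves only *Pdgfra*, at 0.147, lay within 0.2 log2 units of their average, and *Fn1* lay furthest from it at 0.36.

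Ratios between chains within a library are not changed by a single scale factor for that library, and they were compared next. In type I and type IV collagen the alpha-1 chain outnumbers the alpha-2 chain in the trimer. The ratio of *Col1a1* to *Col1a2* was 1.29 and 1.13 in WT and 0.991 and 1.23 in miR-187. The ratio of *Col4a1* to *Col4a2* was 1.35 and 1.09 in WT and 0.889 and 1.30 in miR-187. Both ratios ran in the same order over the libraries, lowest in miR-187 replicate 1 and highest in WT replicate 1, and the groups overlapped. The ratio of *Col3a1* to *Col1a1* was 1.28 and 1.23 in WT but 2.01 and 1.10 in miR-187, so miR-187 replicate 1 stood above the other libraries. By the exact two-sided permutation test on log2 ratios, p was 0.667 for the type I chains, 0.667 for the type IV chains and 1 for *Col3a1* to *Col1a1*, where 2 libraries against 2 cannot give a p below 0.333. These 3 p-values were not adjusted further, as none can pass.

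**Figure D4:**
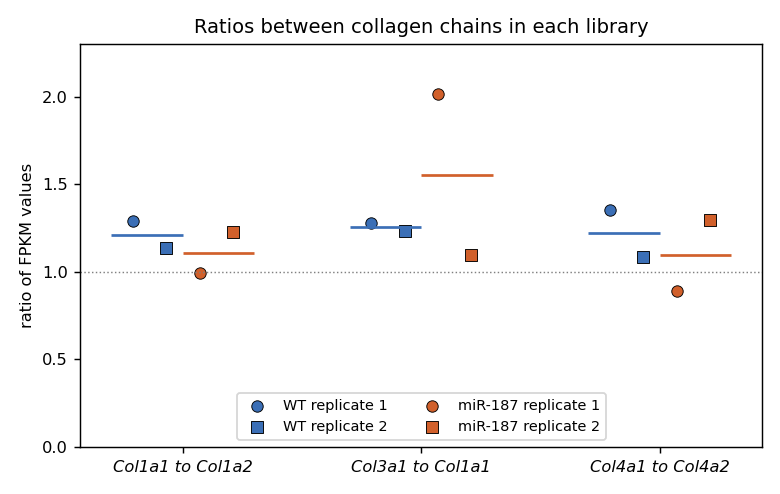
Ratio of FPKM values between collagen chains in each library, with symbols as in the plot of values, short lines for group means and a dotted line at a ratio of 1. In miR-187 replicate 1 the type I ratio is 0.991 and the type IV ratio 0.889, the lowest of the 4 libraries in both, and *Col3a1* to *Col1a1* is 2.01, the highest.

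As a share of the transcript pool, the 10 genes together made up 0.166% and 0.267% of all FPKM in the WT libraries, against 0.294% and 0.253% with miR-187 (exact permutation p = 0.667, two-sided). The groups overlapped. *Sparc* and *Dcn*, the most abundant of the 10 at 603 and 395 FPKM on average, weigh most in this share. The difference in means of 0.0569 percentage points was 0.00635 without WT replicate 1 and 0.107 without WT replicate 2. When IDs averaging 1000 FPKM or more were left out of the sum, the shares were 0.506% and 0.617% in WT and 0.897% and 0.717% in miR-187, and the groups no longer overlapped. The smaller sum raises the shares of both groups by construction. The exact permutation p was then 0.333, the smallest that 2 libraries against 2 allow. On values rescaled to this reduced sum, which raised the median log2 difference of all tested genes by 0.11, the groups did not overlap for 5 of the 10 genes, all higher in miR-187 (*Col1a1*, *Col1a2*, *Col3a1*, *Dcn* and *Sparc*), against 17.1% of all tested genes (2450 of 14325). None was separate and lower, against 8.05% of all tested genes. *Col4a1* then overlapped, since its rescaled values were 262 and 239 in WT and 262 and 208 in miR-187. The same 5 genes were separate after quantile normalization, against 15.5% of all tested genes, and again none was separate and lower (13.7% of all tested genes). With median centring or trimmed-mean factors *Dcn* and *Sparc* were the genes separate and higher, against 14.2% and 14.1% of all tested genes. *Col4a1* stayed separate and lower under both of these scalings, against 12.8% and 12.7% of all tested genes. In none of these scalings did any of the 10 pass the limma threshold.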

How the data were processed

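RNA was extracted from heart tissue with TRIzol, and mRNA libraries were sequenced in paired-end mode. The authors deposited FPKM values per Ensembl gene ID, with 1 column per library. The submitters' processing notes name HISAT2, StringTie, DESeq2 and the build mm10 (GRCm38). Versions, annotation and strand use are not given in the sources used here. FPKM divides by the mapped total of a library, so abundant transcripts lower all others. The members and lists were chosen with earlier results of these data known. IDs averaging 1 FPKM or more were tested on log2(FPKM + 1) with limma 3.58.1 in R 4.3.3 (eBayes with a trend, no replicate block, two-sided), after the procedure was tested on simulated data. The values are no counts, so no interval or detection limit from depth is given. Plots were made in Python 3.11.15 (matplotlib 3.10.9).

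The genes named are the 10 members and the 2 IDs nearest to their mean profile. The rule took the 5 nearest, and 2 are printed because no table pairing IDs with symbols was used here. Positions come from a RefSeq gene table for GRCm38.p6, in which 10 of 10 members matched by symbol. It holds 0 Ensembl IDs, so 15 lists of other matrix genes and cell type markers were not analysed here.

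As alternatives, libraries were scaled by median centring, by quantile normalization, by unweighted TMM factors (trimmed mean of M-values, 30% of M and 5% of A) and by rescaling without IDs over 1000 FPKM. The pseudocount was lowered to 0.1, the minimum mean set to 0.1 or 5 FPKM or dropped, eBayes run robustly or with no trend, the replicate number added as a block, and every library left out once.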

Additional observations from a re-analysis of the deposited data

How the results depend on the processing

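Of the 10 genes, 0 had a limma adjusted p under 0.05 in either direction under any of the alternatives that tested them, the replicate block included. These were 15 for each gene except *Pdgfra*, which falls under a minimum mean of 5 FPKM and had 14. *Dcn*, *Sparc*, *Col3a1* and *Col4a1* kept their direction under all 15. Of 149 values for single genes, 138 kept their direction and 11 turned. Rescaling without IDs over 1000 FPKM turned *Col4a2* to 0.073 and quantile normalization turned it to 0.000184. The other turns came from omission of 1 library, over which log2 differences ran from -0.14 to 0.91 for *Col1a1*, -0.10 to 1.13 for *Col1a2*, -0.43 to 0.32 for *Col4a2*, -0.33 to 0.78 for *Postn*, -0.78 to 0.50 for *Fn1* and -0.13 to 0.64 for *Pdgfra*.

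Genes separate between groups, 2 higher and 1 lower as deposited, numbered 5 higher and 0 lower after quantile normalization and after rescaling. Over all tested genes, 12.3% were separate and higher and 13.2% separate and lower as deposited. These shares were 15.5% and 13.7% after quantile normalization, and 17.1% and 8.05% after rescaling. The cause of these changes was not tested. The difference in the members' share of the FPKM sum, 0.0569 percentage points, ran from 0.00635 to 0.107 with 1 library left out. It was 0.246 when abundant IDs were left out, which by construction also shrinks the sum that the share is taken of.

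Over all tested genes, 0 were called higher and 1 lower. The counts were 31 higher and 15 lower with a minimum mean of 0.1 FPKM, 2 and 3 with rescaling, 4 and 2 with robust eBayes, and 33 and 18 with the replicate block. There were 0 lower with a minimum mean of 5 FPKM, without a filter and with quantile normalization. Omission of 1 library gave 11 to 62 higher and 14 to 56 lower. In these fits the lone library is assumed to vary like the other group; there, with the block and with a minimum of 0.1 FPKM, the prior degrees of freedom were infinite, so a gene's own spread did not enter its test. Same-numbered libraries deviated with r = -0.0675 across tested genes, and no label ties a number to a litter or batch, so they were not taken as pairs. Separation of groups was not counted with 1 library left out, and the lists without names were not run.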
